A study of Homo sapiens and Mus musculus with 18 samples.

Results

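Met5a is an immortalised human mesothelial cell line, and 10 of the 18 libraries of the series were bulk RNA of these cells. The comparison asked what cells given either form of AMHR2 shared when set against control cells, so 7 libraries with a receptor were pooled against 3 without. The controls (CTR, 3 libraries) carry the genotype label WT. Another 4 libraries are of cells with the V1 form, an active receptor in the words of the series, and 3 are of cells with the V3 form, an inactive one, and all 7 carry the label Amhr2+. Libraries are numbered within each group as in their titles, and values are given in that order. All were grown in DMEM with 10% serum, and no added AMH or other treatment is given in the labels. Whether the libraries of a group are separate cultures or clones is not in the labels, nor is how the receptor was introduced, or if CTR cells carried an empty vector. The p-values therefore measure only the spread between these libraries, which may be technical.

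Anti-Müllerian hormone (AMH) belongs to the TGF-beta superfamily, and AMHR2 is its type II receptor. On binding AMH it pairs with a type I receptor such as ACVR1, which phosphorylates the BMP-type SMAD proteins, and these carry the signal to genes such as the ID family. In the male embryo the pathway removes the Müllerian ducts, which form from the coelomic epithelium, the tissue that also gives rise to the mesothelium.

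Total counts ran from 15489888 in V1 1 to 21642906 in V1 3. Mitochondrial transcripts took 3.22 to 5.09% of the counts, the most in CTR 3 (5.09%) and V1 1 (4.93%). Of 11 mesothelial markers, 4 reached 1 FPKM (fragments scaled to transcript length and library size) in every library. They were mesothelin (MSLN), at 4.09 to 18.5 FPKM in CTR and 4.49 to 27.1 FPKM in the others, and the keratins KRT7, KRT8 and KRT18. KRT19 stayed at or below 0.285 FPKM, and WT1 at or below 0.932 FPKM with 3 libraries at 0, so both were nearly absent. All 4 haematopoietic markers were under 1 FPKM in every library, with LYZ at 0 in 8. Markers of some other cell types were present. Of 4 smooth muscle markers, 2 (ACTA2 and TAGLN) reached 1 FPKM in every library. So did 1 of 7 fibroblast markers (COL1A1), 1 of 4 epithelial markers (CLDN3) and 1 of 4 neural markers (SNAP25). Libraries did not always lie nearest to their own group. V1 4 and V3 1, which carry different forms, correlated at 0.996 (Pearson, log2 CPM), the highest of all pairs, and CTR 2 correlated at 0.993 with each of them, above its 0.986 with CTR 1. The counts of V1 4 and V3 1 had a mean chi-square of 3.49 per gene and a median of 1.15, against 23 and 2.21 for the next closest pair. They were counted as 2 libraries, and whether they share an origin or batch is not in the labels. CTR 3 stood apart in the other direction, with 0.928 to V1 3 as the lowest value of any pair.

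The receptor transcript was not detected in the controls and was uneven among the cells given it. AMHR2 (chromosome 12, 53423855 to 53431534, GRCh38) had a count of 0 in each control, which allows at most 0.14, 0.168 and 0.177 CPM (the count scaled to a library size adjusted by TMM factors), if 0 stands for up to 3 counts. It stood at 68.1, 20.6, 1.98 and 5253 CPM in the 4 V1 libraries and at 6061, 61.8 and 2.72 CPM in the 3 V3 libraries. All 7 libraries lay above the limit, the lowest by at least 11.2-fold, but V1 4 and V3 1 were far above the other 5, and the highest library was 3070-fold above the lowest. The transcript took 0.494% of all counts in V1 4 and 0.569% in V3 1. Over the 120 arrangements of 7 and 3 libraries, a two-sided exact permutation test of log2 CPM gave p = 0.025, where the smallest possible is 0.00833. Leaving out any 1 CTR library gave 0.0556, with fewer arrangements and so coarser steps of p. The edgeR adjusted p was 0.600, and that of DESeq2 was 1.13e-07.

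ACVR1 (chromosome 2, 157736444 to 157875862), a type I partner of AMHR2, was high in the same libraries. It measured 26.6, 26.4 and 27.2 CPM in the 3 CTR libraries, then 575.5, 84.4, 49.0 and 5665 CPM in the 4 V1 libraries and 7198, 326.9 and 79.7 CPM in the 3 V3 libraries. The 7 libraries stood in the same order for both genes (7 of 7 ranks), and the lowest of them was 1.8-fold above the highest control. Whether the ACVR1 transcript in the 7 was the cells' own or also introduced was not tested. The log2 fold change was 6.22 (SE 1.90, edgeR adjusted p = 0.595, DESeq2 0.00968). It was 5.41 without V3 1, 3.06 without V1 4 and V3 1, and 3.03 with the replicate number as a block. The exact permutation p was 0.0417. The permutation p ran from 0.0595 to 0.0952 without CTR 1, CTR 2, CTR 3, V1 1 or V3 2, each with fewer arrangements.

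Per unit of transcript length the balance of the 2 receptors differed between libraries. In V1 4 AMHR2 and ACVR1 stood at 1470 and 1390 FPKM, and in V3 1 at 1690 and 1770 FPKM, so the pair was nearly level there. In V1 1 the values were 18.8 and 140 FPKM, and in V3 2 they were 17.2 and 80.4 FPKM. In V1 3, which had the least AMHR2, they were 0.564 and 12.3 FPKM. In all 5 libraries with little AMHR2 the level of ACVR1 was the higher of the pair. BMPR2, the type II receptor of BMP ligands, lay between 4.19 and 9.01 FPKM in all 10 libraries.

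**Figure D1:**
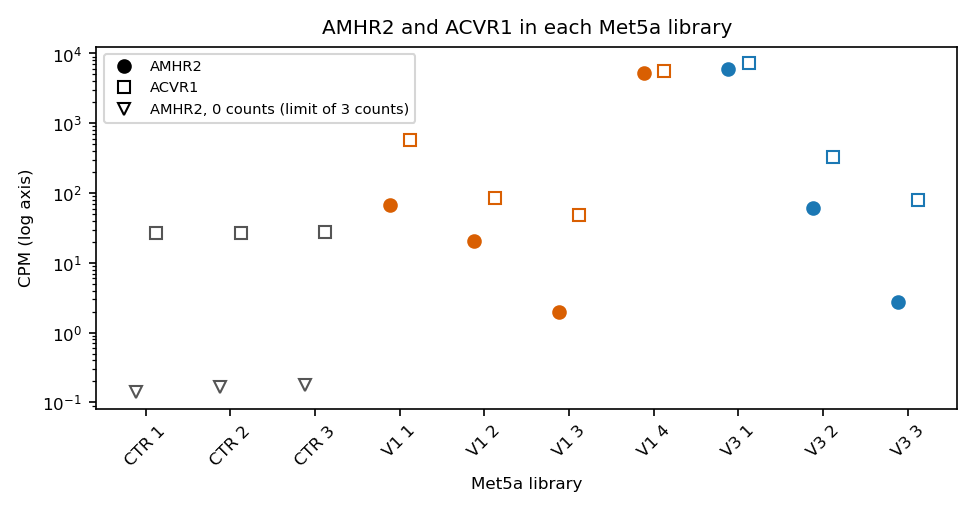
AMHR2 (filled circles) and ACVR1 (open squares) in CPM on a log axis in each Met5a library, grey for CTR, orange for V1 and blue for V3. Open triangles mark the limit of 3 counts where AMHR2 had 0 counts. V1 4 and V3 1 stand far above the others in both genes, from 5253 to 7198 CPM, and V1 3 and V3 3 hold the least AMHR2, at 1.98 and 2.72 CPM.

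Only 1 gene separated all receptor libraries from the controls past the test, and it was lower. MAGED4 (ENSG00000154545, chromosome X, 52184823 to 52192268), of the MAGE-D family of ubiquitin ligase regulators, stood at 17.8, 14.0 and 15.2 CPM in the 3 CTR libraries. It stood at 0.753, 1.29, 2.07 and 0.637 CPM in the 4 V1 libraries and at 0.996, 0.904 and 1.33 CPM in the 3 V3 libraries. Both forms shared the low level, and no library of either came near a control. MAGED4 fell by 3.76 on the log2 scale (SE 0.33, edgeR adjusted p = 0.000901), from 15.6 ± 1.94 CPM (SD, n = 3) to 1.14 ± 0.483 CPM (n = 7). It was called in each of the fits that left out 1 library. It was the single call among 17175 genes tested (0.00582%), with 0 higher genes called. An unadjusted p under 0.05 was reached by 1149 genes (6.69%), of which 519 were higher (3.02% of those tested) and 630 lower (3.67%), and DESeq2 called 39 genes (0.227%), 22 higher and 17 lower. Among these 39 were AMHR2, ACVR1 and MAGED4, and of the genes described below TNFAIP3, ADGRG1, SEMA3D, PLK2, FAT3, STYK1, TPD52, LY6K, RELN, ATF3, MEIS1, DPYSL2, CALB2, SEPT4, OSR1, COL6A3 and HOXB8. With no filter on low counts edgeR called 59 of the 35629 genes then tested, 2 higher and 57 lower. TNFAIP3, ADGRG1, MEIS1, CALB2, GALNT9 and COL6A3 were among them.

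The call is uncertain because MAGED4 has a near-identical copy. Of the 31-base words of its annotated transcripts, 99.3% also occur in those of MAGED4B, so reads of the pair can be assigned to either. MAGED4B read 2.2, 0.842 and 6.07 CPM in the 3 CTR libraries, 5.62, 13, 0.847 and 0.811 CPM in the 4 V1 libraries, and 1.39, 0.621 and 1.79 CPM in the 3 V3 libraries. With both genes summed, the 3 CTR libraries stood at 20, 14.8 and 21.2 CPM, the 4 V1 libraries at 6.37, 14.3, 2.92 and 1.45 CPM, and the 3 V3 libraries at 2.39, 1.53 and 3.12 CPM. The groups of the sum still did not overlap, but V1 2 lay close under CTR 2. The summed log2 fold change was -2.03 (adjusted p = 0.552), and no gene was then called. The promoter window of MAGED4, from 250 bases before to 50 after the start (chrX:52184638-52184937, plus strand, RefSeq on GRCh38.p14), is shown because the likeness reaches it: capitals mark its longest run, 276 bases, that is also in a promoter window of MAGED4B.
MAGED4: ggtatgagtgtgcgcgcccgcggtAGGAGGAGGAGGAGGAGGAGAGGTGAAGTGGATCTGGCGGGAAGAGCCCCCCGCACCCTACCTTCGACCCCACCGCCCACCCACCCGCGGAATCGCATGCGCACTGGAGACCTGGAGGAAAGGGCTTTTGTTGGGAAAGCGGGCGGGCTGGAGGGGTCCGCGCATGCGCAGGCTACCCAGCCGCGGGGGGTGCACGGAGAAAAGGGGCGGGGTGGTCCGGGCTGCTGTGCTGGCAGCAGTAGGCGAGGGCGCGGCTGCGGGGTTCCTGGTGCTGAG

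The other genes described are those in which all 7 receptor libraries lay on one side of all 3 controls, which is a description and not a call. There were 182 such genes above (1.06% of those tested) and 171 below (0.996%), together 2.06%, and 73 and 63 of them differed by at least 2-fold. Over all genes 52% had a log2 fold change above 0 and 48% below. In 13 of the 353 the V1 and V3 libraries differed from each other at an unadjusted p under 0.05, against 4.01% of all genes, and edgeR called 0 genes between V1 and V3. The number rests on few libraries, and leaving 1 out makes separation easier by construction. It was 1126 without CTR 2, 1025 without CTR 3, 872 without CTR 1, 598 without V1 1 and the same without V3 3.

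TNFAIP3 (chromosome 6, 137867188 to 137883312), which encodes A20, an enzyme that edits ubiquitin chains and restrains NF-kB signalling, had the smallest p among the higher genes. It stood at 79.8, 80.4 and 60 CPM in the 3 CTR libraries, at 174, 183, 182 and 207 CPM in the 4 V1 libraries, and at 198, 163 and 135 CPM in the 3 V3 libraries. The receptor libraries lay between 135 and 207 CPM while their AMHR2 levels spanned 3070-fold. V1 4 and V3 1, with the most AMHR2, had 207 and 198 CPM. V1 3 and V3 3, with the least AMHR2, had 182 and 135 CPM. Whether TNFAIP3 followed the level of AMHR2 was not tested. The log2 fold change was 1.27 (SE 0.18, edgeR adjusted p = 0.0746), with 1.34 for V1 and 1.17 for V3 against the same controls. The call depended on the method, since the adjusted p was 0.0386 without V3 3, 0.0469 by limma on log2(FPKM + 1), 0.0139 by edgeR with no filter and 5.5e-09 by DESeq2. MAP3K14, which encodes the NF-kB-inducing kinase NIK, stood at 14.8 to 22.7 CPM in CTR and at 24.0 to 40.0 CPM in the others, with a log2 difference of 0.81 (SE 0.22, adjusted p = 0.552).

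The NF-kB feedback genes were split. Of the list's 13 members, all tested and TNFAIP3 among them, 8 had a log2 fold change above 0 and 5 below, with a median of 0.03 beside 0.01 over all genes. No member was called by edgeR with the filter on low counts and all libraries, and TNFAIP3 was the single one called in the other settings given above. RELB, an NF-kB subunit, had 5.38, 9.26 and 16.7 CPM in CTR and 12.5 to 29.3 CPM in the others, which overlapped. SOD2, the mitochondrial superoxide dismutase, had 1028 CPM in CTR 3 but 65.1 and 62.1 CPM in CTR 1 and 2, against 64.7 to 124 CPM in the 7, so its log2 fold change of -2.23 turned to 0.37 without CTR 3. The median of the list was 0.60 without CTR 3 and -0.08 without CTR 1. The promoter window of TNFAIP3 (chr6:137867009-137867308, plus strand, RefSeq, GRCh38.p14) is shown with matches to the NF-kB motif (GGG, any 2 bases, then TTTCC) on either strand in capitals. They begin at -67 and -55 from the RefSeq start. The GENCODE 29 start given above lies farther upstream, so both matches fall inside the gene as GENCODE draws it. In all, 1.92% of 27305 promoter windows of the same length hold at least 1 match.
TNFAIP3: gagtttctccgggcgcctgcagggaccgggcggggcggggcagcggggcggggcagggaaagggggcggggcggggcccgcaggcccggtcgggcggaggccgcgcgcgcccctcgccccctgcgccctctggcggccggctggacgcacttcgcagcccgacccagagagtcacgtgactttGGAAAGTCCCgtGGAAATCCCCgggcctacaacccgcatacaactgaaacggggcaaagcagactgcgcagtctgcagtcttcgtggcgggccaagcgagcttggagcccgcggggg

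The other genes above the controls in all 7 libraries included those of surface, secreted and cytoskeletal proteins and kinases. ADGRG1, an adhesion G protein-coupled receptor, stood at 10.2, 13.9 and 11.3 CPM in CTR, 21.4, 31.3, 38.2 and 24.0 CPM in V1 and 19.1, 42.2 and 34.6 CPM in V3, a log2 difference of 1.35 (SE 0.27, adjusted p = 0.451). SEMA3D, a secreted semaphorin, stood at 8.04, 15.9 and 9.14 CPM in CTR, 26.7, 22.8, 24.9 and 21.0 CPM in V1 and 20.8, 26.1 and 28.4 CPM in V3. Its 7 libraries were tight (24.4 ± 2.93 CPM, SD, n = 7), with a log2 difference of 1.14 (SE 0.23, adjusted p = 0.451). PLK2, a polo-like kinase, was also even among the 7, at 122 ± 10.9 CPM against 75.1 ± 11.8 CPM in CTR (n = 3), a log2 difference of 0.70 (SE 0.15, adjusted p = 0.518). The remaining 7 above the controls that the same rule named had log2 fold changes between 0.98 and 1.42 and adjusted p from 0.546 to 0.552. They were FAT3, an atypical cadherin, STYK1, a receptor-like kinase, TPD52, LY6K, a GPI-anchored surface protein, the keratin KRT80, the secreted glycoprotein RELN and the RNA-binding protein RBM24. TPD52 and RBM24 were higher in V1 (log2 fold changes of 1.47 and 1.49) than in V3 (0.84 and 0.89), and the difference between forms had an unadjusted p of 0.0412 for TPD52 and 0.0862 for RBM24.

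Among the genes below the controls in all 7 libraries were transcription factors of mesoderm and a mesothelial marker. MEIS1, a homeobox cofactor of HOX proteins, stood at 24.6, 21.1 and 24.4 CPM in CTR, 8.74, 9.72, 5.55 and 12.2 CPM in V1 and 13.7, 7.23 and 8.32 CPM in V3. Its log2 fold change was -1.32 (SE 0.25, adjusted p = 0.392), and stayed between -1.43 and -1.22 without any 1 library. OSR1, a zinc-finger factor of intermediate mesoderm, stood at 8.64 to 19.1 CPM in CTR and 2.37 to 8.32 CPM in the others, a log2 difference of -1.60 (SE 0.35, adjusted p = 0.546). CALB2, which encodes calretinin, a marker used to identify mesothelium, stood at 18.3, 15.3 and 57.5 CPM in CTR, 2.08, 0.446, 0.941 and 6.37 CPM in V1 and 6.62, 3.90 and 3.47 CPM in V3. The log2 fold change of CALB2 was -3.16 (SE 0.64, adjusted p = 0.451), and -2.30 without CTR 3. The mesothelial list, CALB2 included, had 6 of 14 tested members above 0 and 8 below, with a median of -0.10 that was 0.05 without V1 3.

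DPYSL2, a microtubule-binding protein of growing axons, stood at 96.6, 84.3 and 149 CPM in CTR and 50.9 to 66.9 CPM in the 7 (57.9 ± 7.04 CPM, SD), a log2 difference of -0.93 (SE 0.18, adjusted p = 0.392). SEPT4, a septin, stood at 11.5 to 16.7 CPM in CTR and 2.96 to 7.64 CPM in the others, a log2 difference of -1.32 (SE 0.28, adjusted p = 0.498). The other 6 genes of this kind had log2 fold changes between -2.57 and -0.66 and adjusted p from 0.546 to 0.552. They were GALNT9, which starts mucin-type O-glycosylation, PIK3C2B, a lipid kinase, DSE, which makes dermatan sulfate, FDFT1, the squalene synthase, RGL1, an activator of Ral GTPases, and ANKZF1, a ribosome quality-control factor. In GALNT9 the 3 controls stood at 29.1, 21.3 and 156 CPM, and without CTR 3 its log2 fold change was -1.12 in place of -2.57. FDFT1 had 76.8, 62.4 and 162 CPM in CTR, and -0.45 in place of -0.98.

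**Figure D2:**
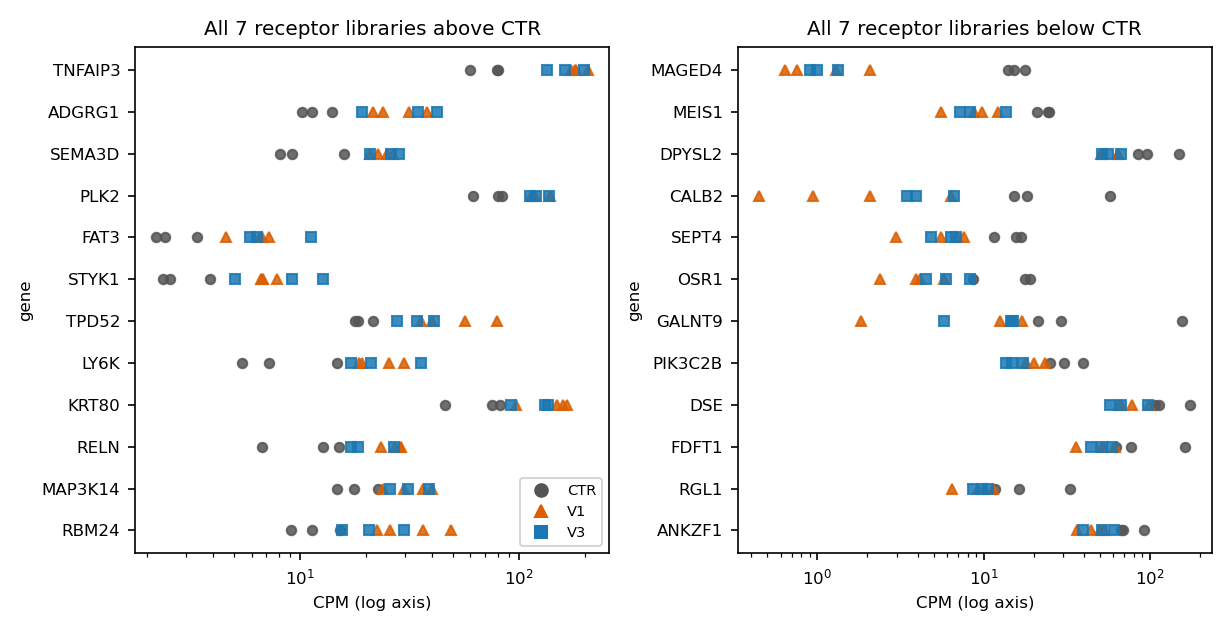
CPM on a log axis of the 12 genes above (left) and 12 below (right) all controls with the smallest p, 1 point per library, grey circles for CTR, orange triangles for V1 and blue squares for V3. The genes were chosen because the grey points do not overlap the 7 others, and in some the groups nearly touch, as in RBM24 (15.15 against 15.54 CPM). MAGED4 has the clearest gap among the lower genes and TNFAIP3 the smallest p among the higher.

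Beyond the receptor pair, the genes of the AMH and BMP pathway were split between higher and lower values, and none was called by edgeR or DESeq2. AMH (chromosome 19, 2249309 to 2252073) was present in all libraries, at 36.1, 61.8 and 45.5 CPM in CTR, 39.0, 51.1, 58.6 and 55.4 CPM in V1 and 61.4, 49.7 and 38.8 CPM in V3, which overlapped. Of 16 receptor genes, 12 were tested, 5 above 0 and 7 below, with a median log2 fold change of -0.04 (0.14 without CTR 1). Of these, ACVR1 and AMHR2, the gene that the 7 libraries were given, were the 2 higher ones at an unadjusted p under 0.05. BMPR2 was the single lower one, at -0.48 (SE 0.18, adjusted p = 0.703). BMPR2 stood at 82.7 to 110 CPM in CTR and 49.7 to 87.5 CPM in the others, overlapping in V1 4 and V3 1.

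The ligand list had 20 of 24 members tested, 12 above 0 and 8 below. INHBB, the beta-B subunit of activin and inhibin, stood at 5.75, 7.07 and 2.00 CPM in CTR, 28.6, 25.9, 58.7 and 10.9 CPM in V1 and 8.47, 17.7 and 5.03 CPM in V3, a log2 difference of 2.16 (SE 0.71, adjusted p = 0.627). All 4 V1 libraries lay above the controls, V3 3 did not, and the forms differed at an unadjusted p of 0.0227. BMP1, a protease that matures procollagens, was below every control in all 7, at 83.5 to 193 CPM against 209 to 350 CPM. TGFB1 had 210 to 270 CPM in CTR and 131 to 238 CPM in the others. Among 11 tested BMP antagonists 4 lay above 0 and 7 below. GREM1, which binds and blocks BMP ligands, was abundant, at 483, 841 and 43.9 CPM in CTR and 440 to 1897 CPM in the 7, which overlapped (log2 difference 1.25, SE 0.66, adjusted p = 0.809). The difference was 0.71 without CTR 3 and 2.05 without CTR 2.

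Of 14 SMAD proteins and regulators, all tested, 4 lay above 0 and 10 below, with log2 fold changes from -0.84 (SMAD1) to 0.29 (SMURF2) and 0 at an unadjusted p under 0.05. The BMP-SMAD targets had 20 of 21 members tested, 11 above 0 and 9 below, with a median of 0.08. That median turned to -0.03 without V1 1 and to -0.43 without V1 1 and CTR 3. It was 0.19 for V1 and -0.02 for V3 against the same controls. The lowest p in this list was that of TNFRSF11B, the decoy receptor osteoprotegerin, at 21.2, 18.4 and 142 CPM in CTR and 8.08 to 52.9 CPM in the others, which overlapped (adjusted p = 0.678). MSX1, a homeobox gene that BMP ligands induce, stood at 8.14 to 15.3 CPM in CTR and 11.8 to 41.9 CPM in the 7.

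Immediate-early genes, which cells switch on within minutes of a stimulus, lay above the controls on average in all 7 libraries. The mean log2 CPM of the 24 immediate-early genes, each gene taken against its mean over 10 libraries, was -0.26, -0.43 and -0.47 in the 3 CTR libraries, 0.44, 0.29, -0.01 and -0.05 in the 4 V1 libraries and -0.04, -0.02 and 0.53 in the 3 V3 libraries. Of the 24, 18 had a log2 fold change above 0 and 6 below, with a median of 0.43, and 9 were higher at an unadjusted p under 0.05 beside 3.02% of all genes. None was called by edgeR, and DESeq2 called ATF3 (adjusted p = 0.00644). FOSL1, the AP-1 subunit FRA1, stood at 54.1, 103 and 23.5 CPM in CTR and 84.9 to 201 CPM in the others, a log2 difference of 1.39 (SE 0.40, adjusted p = 0.552) that was 2.04 without CTR 2. JUN stood at 97.2, 128 and 138 CPM in CTR, 801, 238, 290 and 205 CPM in V1 and 192, 211 and 246 CPM in V3. Its groups did not overlap, and its log2 fold change of 1.37 (SE 0.44, adjusted p = 0.627) was 0.93 without V1 1. ATF3, a stress-induced factor of the same family, was likewise above all controls, at 37.5 to 255 CPM against 22.1 to 29.4 CPM. The log2 fold change of ATF3 was 1.61 (SE 0.60, adjusted p = 0.678), 0.90 without V1 1 and 0.89 by DESeq2.

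Genes induced by ERK signalling that restrain it were mostly above 0 as well, with 9 of 12 above, a median of 0.22 and 3 higher at an unadjusted p under 0.05 (3.02% of all genes). PHLDA1 was above the controls in all 7 libraries, at 217, 204 and 99.4 CPM in CTR, 251 to 502 CPM in V1 and 288, 400 and 333 CPM in V3 (log2 difference 1.05, SE 0.29, adjusted p = 0.552). The phosphatases DUSP5 and DUSP4 had log2 fold changes of 0.59 and 0.72 and overlapped. SPRY1 had the opposite sign, at -1.46.

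The targets of YAP and TEAD, factors that respond to cell density and tension, had 14 of 17 members above 0, a median of 0.43, and 8 higher at an unadjusted p under 0.05 (3.02% of all genes). The median was 0.42 for V1 and 0.44 for V3 against the same controls, and between 0.38 and 0.57 without any 1 library. F3, the tissue factor that starts coagulation, stood at 51.6, 148 and 48.5 CPM in CTR, 186, 163, 412 and 361 CPM in V1 and 346, 205 and 108 CPM in V3. Its log2 fold change was 1.62 (SE 0.48, adjusted p = 0.552) and 2.36 without CTR 2, which V3 3 overlapped. AXL, a receptor kinase, stood at 285, 490 and 260 CPM in CTR and 473 to 733 CPM in the others, and CYR61 at 619 to 948 CPM against 761 to 1771 CPM. Single libraries of both groups overlapped in every member, and the mean level of the list in CTR 2 (-0.01) lay above that of V1 1 (-0.04), V1 2 (-0.21) and V3 3 (-0.04). None of the 17 was called by edgeR or DESeq2.

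Fibroblast markers and collagens lay on the low side, while the other matrix genes were split. All 9 tested members of 14 fibroblast markers had a log2 fold change below 0, with a median of -1.32 (-1.90 to -1.001 without any 1 library), 4 of them at an unadjusted p under 0.05 beside 3.67% of all genes. The groups overlapped in the mean level of the list, where V1 2 (0.69) lay above CTR 2 (0.54) and CTR 3 (0.46). CTR 1 stood highest, at 2.06. The other 5 members did not pass the filter on low counts. PDGFRA, a growth factor receptor and 1 of these, spanned 0.00566 to 6.5 FPKM in CTR and 0 to 0.0354 FPKM in the others. THY1 spanned 0 to 1.25 FPKM in CTR and 0 to 0.0288 FPKM in the others. With no filter edgeR called both lower, though the groups overlapped in each. DCN, the proteoglycan decorin, was below the controls in all 7 libraries, at 3.20 to 6.41 CPM in CTR and 0 to 1.56 CPM in the others. COL1A1, the alpha-1 chain of type I collagen, stood at 212, 110 and 34.9 CPM in CTR, 17.5, 24.2, 13.9 and 60.4 CPM in V1 and 60.8, 20.9 and 32.7 CPM in V3, a log2 difference of -1.86 (SE 0.51, adjusted p = 0.552) that was -1.13 without CTR 1. V1 4 and V3 1 overlapped CTR 3 there. The summed level of the 7 fibroblast markers used to check cell identity was 5.27 to 32.1 FPKM in CTR and 2.42 to 7.15 FPKM in the others, with THY1 at 0 in 6 libraries. Fewer cells of a fibroblast-like kind and less RNA per cell cannot be told apart in bulk RNA, and the part of such cells in the matrix values was not tested.

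Of 22 tested collagen genes 19 lay below 0 and 3 above, with a median of -0.40. COL1A1, COL1A2 and COL3A1 are in the fibroblast list too, so these lists are not separate. The mean level of the collagens in V1 2 (0.15), V1 4 (0.24) and V3 1 (0.25) lay above that of CTR 3 (0.0001). The other matrix genes, with DCN among them, had 12 of 30 tested members above 0 and 18 below, with a median of -0.07. There 1 was higher and 3 were lower at an unadjusted p under 0.05, beside 3.02% and 3.67% of all genes. THBS1, a thrombospondin, and LAMA3, a laminin chain, had log2 fold changes of 1.26 and 0.67 with overlapping groups. COL6A3, a chain of type VI collagen, stood at 171, 2.08 and 10.1 CPM in CTR and 0.17 to 2.08 CPM in the others. Its log2 fold change of -5.97 (SE 0.99, adjusted p = 0.146) was -2.63 without CTR 1 and was called without CTR 2 (-6.54, adjusted p = 0.0291). COL1A2 stood at 68.3, 4.04 and 0.885 CPM in CTR and 1.27 to 12 CPM in the 7, and its log2 fold change of -2.89 turned to 0.42 without CTR 1. The TGF-beta-SMAD3 targets, which hold several matrix genes, had 12 of 15 members below 0 and a median of -0.35. BMP1 and ITGAV, an integrin chain that binds latent TGF-beta, were below all controls in all 7, ITGAV at 99.6 to 170 CPM against 175 to 231 CPM. MMP2 stood at 9.07 to 24 CPM in CTR and 3.20 to 9.49 CPM in the others.

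HOX genes, which set position along the body axis, had 11 of 29 tested members above 0 and 18 below, with a median of -0.18 that was 0.08 without CTR 1 and -0.46 without CTR 3. HOXB8, of a family of proteins that MEIS1 binds, was below the controls in all 7 libraries, at 5.66, 1.57 and 3.36 CPM in CTR, 1.10, 0.892, 0.847 and 1.22 CPM in V1 and 1.20, 0.791 and 0.809 CPM in V3. Its log2 fold change was -1.85 (SE 0.38, adjusted p = 0.451). Its neighbour HOXB5 stood at 2.81 to 6.19 CPM in CTR and 0.446 to 3.33 CPM in the others. HOXC13 went the other way, at 17.1 to 19.7 CPM in CTR and 18.8 to 39.8 CPM in the 7, which overlapped.

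**Figure D3:**
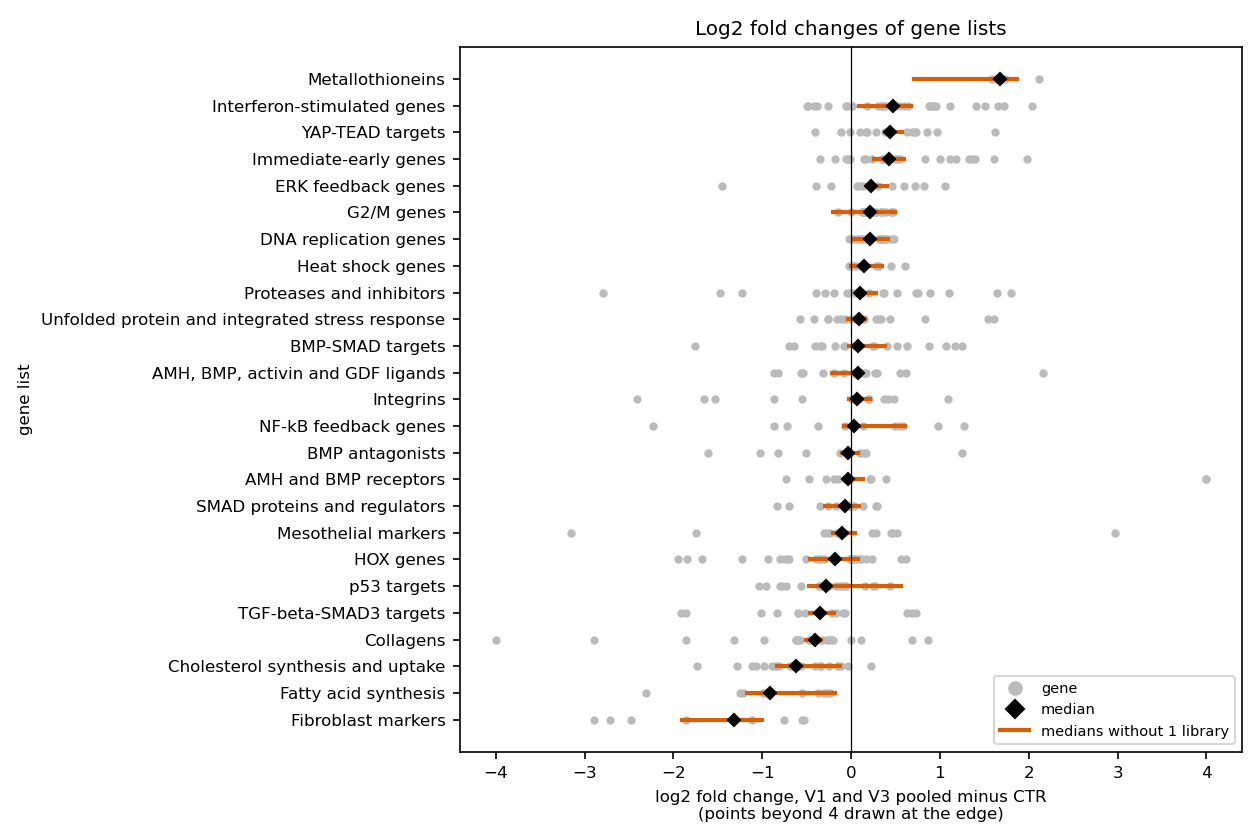
Log2 fold change of each tested member (grey points), the median (black diamond) and the span of medians when 1 library is left out (orange bar) for 25 gene lists, ordered by median. Fibroblast markers lie lowest at -1.32 and metallothioneins highest at 1.68, the bars of the YAP-TEAD targets and the immediate-early genes stay above 0, and those of the p53 targets and the G2/M genes cross it.

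Lipid synthesis genes lay below the controls on average, and CTR 3 carried most of the difference. All 11 fatty acid synthesis genes lay below 0, with a median of -0.91, and 23 of 24 tested cholesterol genes, with a median of -0.62. At an unadjusted p under 0.05 these were 7 and 10 genes, all lower (3.67% of all genes), and none was called by edgeR or DESeq2. Without CTR 3 the medians were -0.18 and -0.12. SCD, which makes monounsaturated fatty acids, stood at 865, 509 and 5080 CPM in CTR, 1465, 284, 84.8 and 359.5 CPM in V1 and 358, 181 and 309.8 CPM in V3. MSMO1, of the late cholesterol pathway, stood at 37.3, 26.0 and 198 CPM in CTR and 19.9 to 32.8 CPM in the others, and its log2 fold change of -1.73 was -0.27 without CTR 3. In SREBF1, which encodes the factor that drives fatty acid synthesis, CTR 1 and 2 had 362 and 390 CPM, CTR 3 had 851 CPM and the 7 had 157 to 400 CPM. CTR 3 also had the largest mitochondrial share of counts (5.09%), whose part in these values was not tested.

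Both lipid lists were looked at for the CCAAT box, where NF-Y binds beside the sterol-responsive factors. Among cholesterol genes with a promoter window 15 of 18 held CCAAT on either strand, among fatty acid genes 4 of 10, and among all 27305 windows 35.7%. The window of SCD (chr10:100346983-100347282, plus strand, RefSeq, GRCh38.p14) is shown with its matches in capitals, beginning at -229 and -186, since SCD had the widest range among the lipid genes named.
SCD: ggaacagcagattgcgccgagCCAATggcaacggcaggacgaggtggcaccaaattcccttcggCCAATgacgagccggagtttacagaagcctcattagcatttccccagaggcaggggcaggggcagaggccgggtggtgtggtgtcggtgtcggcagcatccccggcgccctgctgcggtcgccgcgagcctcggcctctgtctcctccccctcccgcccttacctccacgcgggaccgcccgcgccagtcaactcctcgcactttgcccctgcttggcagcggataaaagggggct

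Cell-cycle genes and p53 targets also depended on CTR 3. Of 26 G2/M genes 24 lay above 0, with a median of 0.21, and without CTR 3 the median was -0.20. AURKA, a mitotic kinase, stood at 222, 256 and 48.8 CPM in CTR and 168 to 294 CPM in the others. DNA replication genes had 24 of 25 above 0, and their median of 0.21 was 0.02 without CTR 3. Of 20 p53 targets 16 lay below 0, with a median of -0.28 that turned to 0.56 without CTR 3. TP53INP1 showed the pattern, at 17.9, 14.8 and 110 CPM in CTR and 11.9 to 48.9 CPM in the 7. The p53 target scores were -0.45 and -0.50 in CTR 1 and 2 and -0.51 and -0.48 in V1 4 and V3 1, while V3 2 and V3 3, at 0.32 and 0.56, came nearest to the 1.20 of CTR 3. No member of these 3 lists was called by edgeR or DESeq2.

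**Figure D4:**
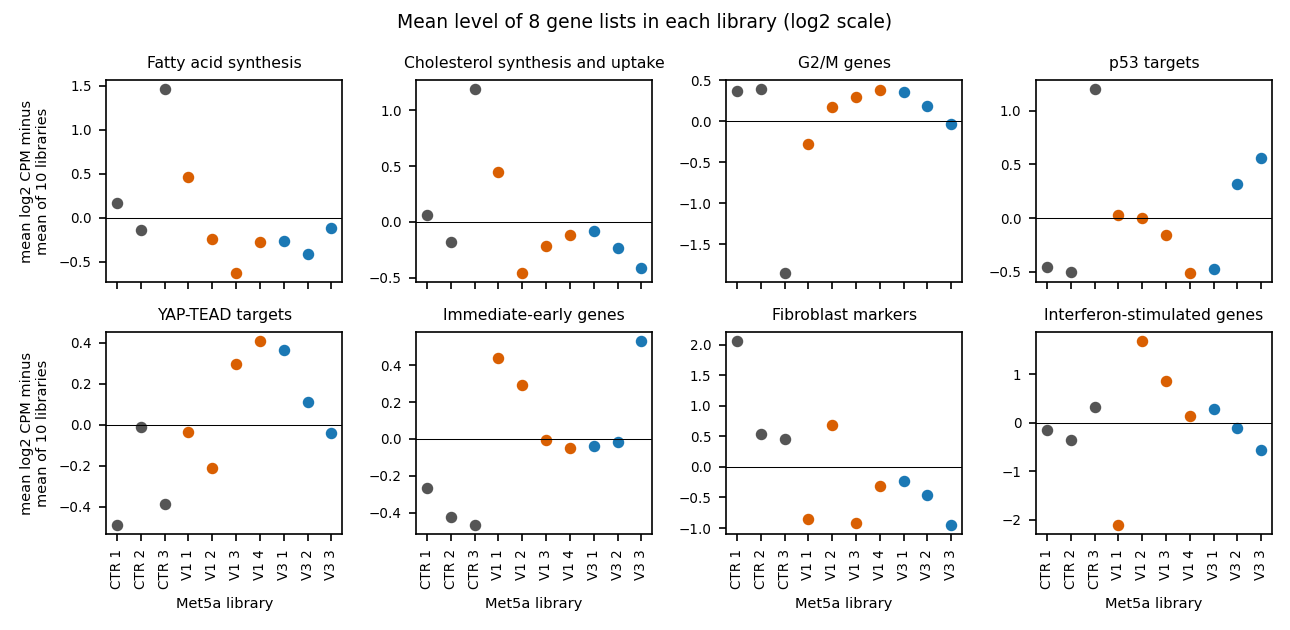
Mean log2 CPM of the tested members of 8 gene lists in each library, each gene taken against its mean over the 10 libraries, grey for CTR, orange for V1 and blue for V3. CTR 3 lies apart in the lipid, G2/M and p53 lists, V1 1 is lowest for interferon-stimulated genes (-2.11), and in the immediate-early genes all 7 coloured points lie above the 3 grey ones.

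Metallothioneins and interferon-stimulated genes were highest in single V1 libraries. The 4 tested metallothioneins of 9, small proteins that bind zinc and copper, were all above 0, with a median of 1.68 and 0.71 without V1 1. MT2A was above the controls in every library, at 168, 247 and 178 CPM in CTR, 1492, 359, 423 and 254 CPM in V1 and 300.5, 727 and 605 CPM in V3. Its log2 fold change was 1.59 (SE 0.51, adjusted p = 0.627), and 1.17 without V1 1. MT1E stood at 873 CPM in V1 1, 56.3 to 134 CPM in the 6 other receptor libraries and 15.9 to 68.7 CPM in CTR. The window of MT2A (chr16:56608334-56608633, plus strand, RefSeq, GRCh38.p14) is shown with matches to the metal response element (TGC, any base, C, any base, CG, any base, C) on either strand in capitals. They begin at -153, -139, -91 and -54, and 7.12% of 27305 windows hold at least 1.
MT2A: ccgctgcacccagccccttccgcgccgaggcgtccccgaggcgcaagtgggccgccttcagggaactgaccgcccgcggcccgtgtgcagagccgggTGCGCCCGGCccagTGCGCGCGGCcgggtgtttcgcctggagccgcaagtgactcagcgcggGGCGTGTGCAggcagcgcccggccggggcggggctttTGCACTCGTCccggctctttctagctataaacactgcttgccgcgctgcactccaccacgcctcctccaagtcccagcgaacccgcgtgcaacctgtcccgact

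Of 30 interferon-stimulated genes 23 lay above 0, with a median of 0.47. It was 0.83 for V1 and -0.001 for V3 against the same controls, and 0.09 without V1 2. USP18, which removes ISG15 from proteins, was above the controls in all 7 libraries, at 2.25, 2.30 and 2.30 CPM in CTR, 3.47, 13.3, 9.41 and 5.44 CPM in V1 and 5.83, 4.63 and 3.41 CPM in V3 (log2 difference 1.51, SE 0.46, adjusted p = 0.595). MX1, an antiviral GTPase, reached 199 CPM in V1 2 and 94.3 CPM in V1 3, against 17.7 CPM in V1 1, 12.8 CPM in V3 3 and 16.0 to 26.8 CPM in CTR. The mean levels of the list overlapped between the groups.

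The stress lists gave smaller values. Of 12 heat shock genes 10 lay above 0, with a median of 0.15, and DNAJB1, a co-chaperone, was above the controls in all 7, at 164 to 204 CPM against 125 to 159 CPM (log2 difference 0.31, SE 0.14, adjusted p = 0.741). The unfolded protein and integrated stress list had 13 of 21 above 0. In it PPP1R15A, which restores translation after stress, stood at 850 CPM in V1 1 and 102 to 214 CPM in the 6 other receptor libraries, against 66.4 to 105 CPM in CTR. Of the 42 lists, the 17 not drawn had medians from -0.68 to 0.27.

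By chromosome, the genes that did not overlap made up 0.526 to 3.52% of those tested, beside 2.06% over all, and the spread over chromosomes was not tested. Chromosome 12 (3.52%) held 24 above the controls and 8 below among 910 tested. Chromosome 8 (3.14%) held 9 and 9 among 573, and chromosome 11 (3.04%) held 7 above and 21 below among 920. In single libraries the median level of whole chromosomes was off the mean of the 10. In V1 2 and V1 3 it was -0.35 and -0.27 for chromosome 11, 0.21 and 0.27 for chromosome 6, and 0.18 and 0.17 for chromosome 12, on the log2 scale. In V1 1 it was -0.50 for chromosome 4 and -0.31 for chromosome 8, and in V3 3 it was 0.26 for chromosome 17. The largest shifts of the 3 CTR libraries were 0.11 to 0.17, and those of V1 4, V3 1 and V3 2 were 0.15, 0.12 and 0.14. The part of these shifts in the genes named above was not tested, and chromosome copies were not measured.

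**Figure D5:**
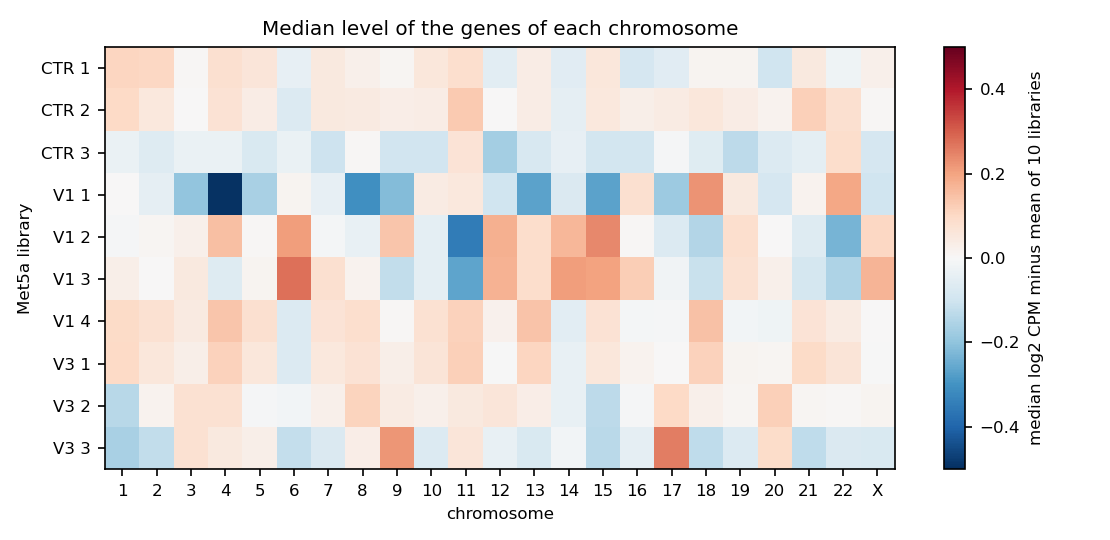
Median log2 CPM of the genes of each chromosome in each Met5a library, minus the mean over the 10 libraries, from blue (lower) to red (higher). V1 1 shows the lowest value, -0.50 on chromosome 4, V1 2 and V1 3 share low values on chromosome 11 and high values on chromosome 6, and CTR, V1 4, V3 1 and V3 2 show pale cells throughout.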

How the data were processed

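Total RNA of 10 Met5a libraries was measured. Per the labels' protocols a column kit and a sequencing company were used. Tests used the deposited whole-number counts, and levels per length are the deposited FPKM values. The sources used here give no aligner, counter, strand setting or build. Every gene in the table (58735) matches GENCODE 29 in its coordinates, so positions are on GRCh38. The number of columns of per-sample values left unused was 0. Without strand information, reads of overlapping and antisense genes cannot be told apart.

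Low genes were removed by edgeR 4.0.16 (filterByExpr, minimum count 10), leaving 17175 for testing. The quasi-likelihood test was fitted on 2 groups, V1 with V3 against CTR, with TMM factors, two-sided, with Benjamini-Hochberg adjustment over all genes and a threshold of 0.05. V1 was compared with V3 in a fit of 3 groups, which also gave the values of each form against the CTR libraries that both share. Adjusted p-values are from edgeR unless another tool is named. Log2 CPM used a prior count of 2. Chromosome medians were taken over genes at or above a mean of 5 CPM. A count of 0 was taken to allow 3 counts, which covers counting error only, as do all limits here, since the reads carry no molecular identifiers. Alternatives used DESeq2 1.42.0 (Wald test) and limma 3.58.1, and scripts were tested on simulated data.

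The comparison, the 42 gene lists and the tests were chosen with earlier results of these data known. The 25 lists drawn, the motifs and the promoters were chosen after the list results were seen. Named genes were AMHR2, AMH and ACVR1, any called gene, up to 12 protein-coding genes per direction at or above a mean of 5 CPM whose groups do not overlap, by p, and up to 3 members per list drawn, by p. SPRY1, SMURF2, MAGED4B, PDGFRA, THBS1 and LAMA3 were named after their values were seen. Libraries were not paired by replicate number in the main fit. Deviations of libraries with the same number correlated at -0.189 to 0.294, the highest for CTR 3 with V3 3. These correlations cannot exclude a shared batch. The mouse tumours were not analysed here.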

Additional observations from a re-analysis of the deposited data

Results flagged for a closer look

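Of 188 groups of libraries examined among the 94 named genes, 26 held a highest or lowest library set far from the rest. Chance gives about 1 in 20 where groups are separate. Here V1 lies within the 7 and the genes were picked by p or list, so the 26 cannot be set against that share. Most of the 26 were in V1 1. Among all 7 receptor libraries V1 1 stood alone in JUN (801 CPM), MT2A (1492 CPM), MT1E (873 CPM), MT1X (136 CPM), ATF3 (255 CPM) and PPP1R15A (850 CPM), and in each of these it also stood alone within V1. It stood alone among the 7 in SCD (1465 CPM), CDC6 (186 CPM), RFC5 (109 CPM) and LDLRAD4 (1.1 CPM), and within V1 in STYK1 (7.82 CPM) and TM4SF1 (9.73 CPM). V1 4 stood alone within V1 in AMHR2 (5253 CPM) and ACVR1 (5665 CPM). V1 2 did so among the 7 in TNFRSF11B (52.9 CPM) and, also within V1, in COL1A2 (12 CPM). V1 3 did so within V1 in SOD2 (88.6 CPM). In V3 the libraries far from the other 6 were V3 3 in FAT3 (11.2 CPM) and V3 2 in CD34 (2.32 CPM). The 6 genes of V1 1 that were far in both groupings were above the controls there too, and their part in the group values is given by the fits without V1 1.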

How the results depend on the processing

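The count of 1 called gene held with median-ratio factors, with limma on log2(FPKM + 0.1), with a fit of 3 groups and without V1 1 and CTR 3 together. It was 59 with no filter on low counts, 57 of them lower, 39 by DESeq2, 2 by limma on log2(FPKM + 1) and 0 with MAGED4 and MAGED4B summed. Leaving out single libraries gave 1 to 3 calls, with COL6A3 and PDGFRA added without CTR 2 and TNFAIP3 without V3 3. Between V1 and V3 the count of 0 became 75 with no filter and 1 by DESeq2, and ran from 0 to 3 without single libraries, 3 without V1 4. With the replicate block the pooled fit called 1 gene, with 866 at an unadjusted p under 0.05, and V1 against V3 gave 3. The 353 genes that do not overlap became 406 to 1126 without single libraries and 923 without V1 4 and V3 1, a choice made after seeing the data. Fewer libraries make separation easier by construction.

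The log2 CPM difference of AMHR2 (9.49) ran from 8.44 to 10.36 without single libraries. The permutation p was 0.0556 without any 1 CTR library (9.39, 9.52 and 9.56). Leaving out any library allows fewer arrangements, and leaving out a CTR library allows fewer than leaving out a receptor library. The steps of p are then coarser, so these p-values cannot be compared directly with each other or with that of the full set. The permutation p was 0.0119 without V1 3 (10.36) and without V3 3 (10.28). The reason for the higher p without a CTR library was not tested. For ACVR1 the difference (3.99) ran from 3.31 to 4.51. Its p was over 0.05 without CTR 1 (3.98), CTR 2 (3.98), CTR 3 (4.00), V1 1 (3.92) or V3 2 (4.05). Over 20 settings the 94 named genes gave 1818 values on the same side of the threshold, 28 that passed it, 1 that no longer did (MAGED4 summed, -2.03) and 13 that changed sign, none of them called. The sign changes, each with its range without single libraries, were AMH (-0.0704 without CTR 1 to 0.33, and -0.00533 without V1 4 and V3 1), NOG (-1.42 to 0.54 without CTR 3, and 0.55 without V1 1 and CTR 3), BAMBI (-1.02 to 0.0831 without CTR 1), SOD2 (-2.71 to 0.37 without CTR 3, and 0.42 without V1 1 and CTR 3), COL1A2 (-3.74 to 0.42 without CTR 1), HMMR (-0.0013 without CTR 3 to 0.88, and -0.0207 without V1 1 and CTR 3), TNFRSF10B (0.0617 without V1 1 and CTR 3) and TP53INP1 (-1.35 to 0.59 without CTR 3, and 0.63 without V1 1 and CTR 3). The cause was not tested. With 3 controls, 1 control library decides many values, large ones such as COL6A3, COL1A2 and SOD2 among them.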
